A study of Homo sapiens with 4 samples.

Results

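DEAD and DEAH box proteins are ATP-driven RNA helicases, whose genes carry the symbols DDX and DHX. Skipped exons of these genes were followed in a human breast cancer cell line after knockdown of SNRPB2. The members were all skipped-exon events, measured in both groups, whose skipped exon shares a boundary with an exon of a protein-coding DDX or DHX gene of GENCODE release 29, leaving out DDX23, DDX42, DHX8, DHX16 and DHX38. The rule took in 50 genes and 141 of the 39919 events. Events were found for 37 of the genes and covered 128 different skipped exons, of which 109 in 35 genes had enough reads to be compared.

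MDA-LM2 cells descend from the MDA-MB-231 breast cancer line and were selected for growth in the lung; their total RNA was sequenced 48 h after transfection in 2 libraries per group. The siSNRPB2 group received small interfering RNAs against SNRPB2, and the siCtrl group was a mock-transfected control with a control siRNA; both groups carried the same cell line and transfection reagent. The study used a pair of independent siRNAs with a knockdown above 95% by quantitative PCR, per the labels; the level of SNRPB2 itself was not analysed here, and which library received which is not given in the labels. All values come from 1 cell line, and the files hold 1 value per event and group, so that no difference below has a replicate check.

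DEAD and DEAH box helicases use ATP to unwind short RNA duplexes or to strip proteins from RNA. Several act on the spliceosome itself, others move mRNA through the nuclear pore, build ribosomes, unwind mRNA leaders for translation or sense viral RNA. The knocked-down gene, SNRPB2, codes for a component (U2B'') of the U2 small nuclear ribonucleoprotein (snRNP), and DDX46 is the human counterpart of yeast Prp5, the helicase that helps the U2 snRNP to bind the branch point of an intron.

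The inclusion level ψ is the authors' estimate of the fraction of transcripts that keep an exon, and it is given below with the interval the authors deposited. Reads that fit only the isoform with the exon (inclusion-only reads) and reads that fit only the isoform without it (exclusion-only reads) were called informative. Exons were compared where each file had at least 20 informative reads, with 1 event per skipped exon. An exon was called lower or higher in siSNRPB2 where the Bayes factor in the authors' deposited table was at least 10 and ψ differed by at least 0.1. The compared helicase exons had a median of 212 informative reads in siSNRPB2 and 312 in siCtrl. Reads per gene are given as RPM, the reads on the deepest event of a gene scaled per 1000000 of the same sum over all genes. These sums were 16331433 reads in siSNRPB2 and 18453080 in siCtrl, of which 80726 and 85354 were on helicase genes. Mesenchymal marker genes, which this line expresses, had reads in both files (5 of 8 genes with an event, summed to 3004 RPM in siSNRPB2 and 3390 in siCtrl, of which CD44 gave most). The luminal markers with an event were 5 of 8, at 715 and 768 RPM, of which KRT8 gave 693 and 745. Blood and endothelial markers summed to 5.7 and 4.17 RPM over 3 of 5 genes.

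At 80 of the 109 helicase exons ψ differed by at most 0.05 between the groups. ψ was at least 0.9 in both files at 46 of the 109 exons, at most 0.1 in both at 22, and elsewhere at the remaining 41. The median ψ difference, siSNRPB2 minus siCtrl, was 0 over the helicase exons and 0 over all 18682 exons compared. In all, 12 exons in 9 helicase genes were called, 7 lower (6.42% of the 109) and 5 higher (4.59%). The background over all exons was 7.61% lower and 7.13% higher, 14.7% in either direction, and the shares of the helicase exons were below it. The authors' intervals of the 2 groups did not overlap at any of the 12 called exons.

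**Figure D1:**
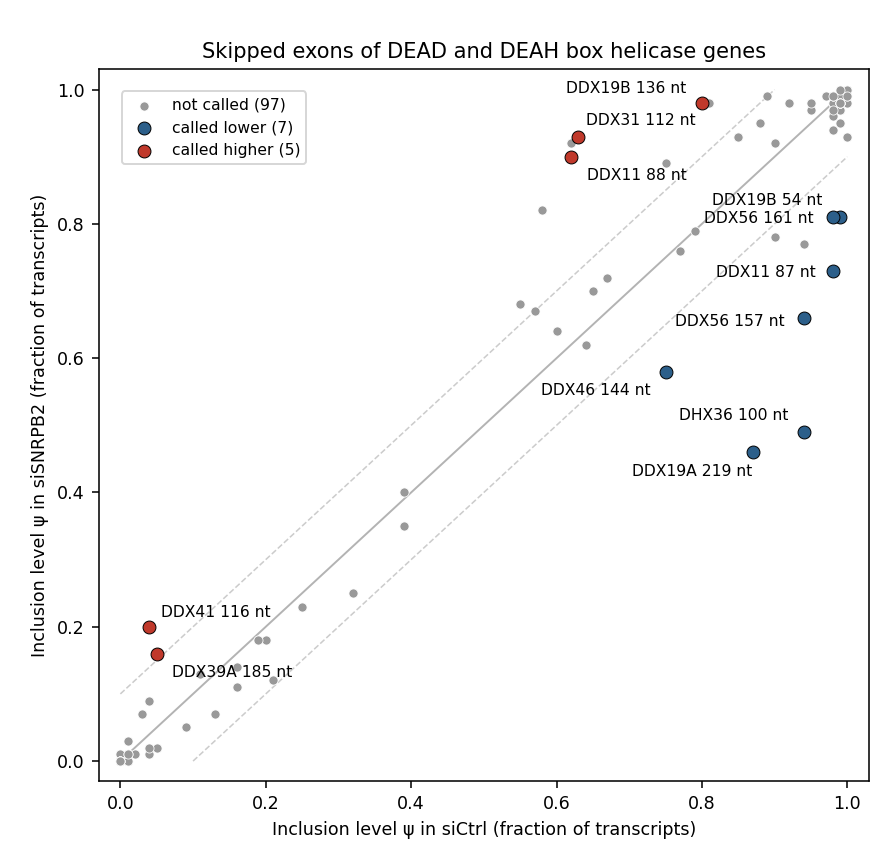
Inclusion level ψ in siCtrl (x axis) against siSNRPB2 (y axis) for the 109 helicase exons, 1 point per exon, with equality as a solid line and a difference of 0.1 as dashed lines. Of these, 97 were not called (grey), 7 were called lower (blue) and 5 higher (red), and most points lie near the 2 corners of the equality line.

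The reads behind ψ differ between exons. At 64 of the 109 helicase exons neither file had a read across the skipping junction, and 7 of the 12 called exons were among these. There ψ rests on inclusion-only reads set against reads that fit both isoforms, which lie in the flanking exons. Such a ψ can take any level without a skipped transcript having been read: 27 of the 41 exons outside the 2 corners had no exclusion-only read. An example is the 97-nt exon of DDX5 (chr17:64504222-64504318, hg38), with ψ of 0.40 in siSNRPB2 and 0.39 in siCtrl and no exclusion-only read beside 2120 and 2107 inclusion-only reads. The helicase exons with at least 10 exclusion-only reads in a file numbered 39, in 21 genes.

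A second reading of the same data used reads only. Fisher's exact test (2-sided) compared inclusion-only with exclusion-only reads between the files, with Benjamini-Hochberg adjustment over all 18682 exons, an adjusted p under 0.05 and a share of inclusion-only reads different by at least 0.1. It compares the files, not the conditions. It called 6 helicase exons, 3 lower and 3 higher, against a background of 5.28% lower and 5.27% higher. Of these 6, 2 were also called by ψ and the Bayes factor. The test could not call the 7 called exons without exclusion-only reads, so this overlap was limited beforehand. In near-constitutive exons, the split between inclusion-only and flanking reads varied between the files 9.97 times more than expected of independent reads, and with reads divided by this noise factor the test called 0 helicase exons. The share of all exons called with divided reads is not given here, so this 0 says nothing particular to helicases. Adjusted p-values given for single exons below are from this test on undivided reads.

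Exons with reads across the skipping junction are described here in a pair of groups: exons with a stop codon that occur only in transcripts annotated for nonsense-mediated decay, the pathway that removes mRNAs with an early stop, and coding exons with skipping reads in 1 file only. The first group is shown here because its exons add an early stop when included. Shown is the longest such exon per gene that shares no boundary with an exon of a protein-coding transcript. It is given for the called genes DDX39A and DDX41, and for DDX17 and DDX50, where it had inclusion-only reads in both files. For DDX3X it is the 98-nt exon, which had none, and longer stop exons of DDX3X, described further below, share such a boundary. Each is printed from its first base to the annotated stop codon, which is in capitals, as given by the GENCODE release 29 transcript sequences (hg38, strand of the gene).
DDX39A 185-nt exon, minus strand: gctcccctcccTGA
DDX41 116-nt exon, minus strand: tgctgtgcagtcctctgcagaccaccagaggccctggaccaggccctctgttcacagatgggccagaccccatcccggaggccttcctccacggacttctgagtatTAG
DDX17 231-nt exon, minus strand: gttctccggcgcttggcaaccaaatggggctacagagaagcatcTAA
DDX50 112-nt exon, plus strand: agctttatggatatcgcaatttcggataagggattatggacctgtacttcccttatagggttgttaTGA
DDX3X 98-nt exon, plus strand: tgtggtgaacTGA

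DDX39A encodes an mRNA export helicase closely related to DDX39B. Its 185-nt exon (chr19:14410421-14410605, minus strand), whose stop codon starts at base 12 of the exon, had ψ of 0.16 (0.13 to 0.18) in siSNRPB2 and 0.05 (0.04 to 0.07) in siCtrl, a difference of 0.11 with Bayes factor 1e+12 in the authors' deposited table. It had 133 inclusion-only reads against 232 exclusion-only reads in siSNRPB2 and 60 against 310 in siCtrl. The share of inclusion-only reads was 36.4% (exact 95% binomial interval 31.5 to 41.6) against 16.2% (12.6 to 20.4), and Fisher's exact test gave an adjusted p of 1.76e-08. A shorter form of this exon, 58 nt long with the same 5' end, had 10 inclusion-only reads in siSNRPB2 and 2 in siCtrl at ψ of 0.03 and 0.01. The level of DDX39A was 79.1 and 77.0 RPM, a log2 ratio of 0.04 with a counting interval of -0.07 to 0.15.

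DDX41 encodes a spliceosome-associated helicase that is mutated in familial myeloid neoplasms. The 116-nt exon of DDX41 (chr5:177514173-177514288, minus strand) was at ψ of 0.20 (0.14 to 0.26) in siSNRPB2 and 0.04 (0.02 to 0.07) in siCtrl, a difference of 0.16 with Bayes factor 2.81e+05 in the authors' deposited table. Inclusion-only reads were 38 and 8 and exclusion-only reads 22 and 15. With so few reads, the shares of 63.3% (49.9 to 75.4) and 34.8% (16.4 to 57.3) overlapped in their exact intervals, and the adjusted p by Fisher's exact test was 0.128. The 137-nt coding exon of the same gene was at ψ of 1.00 in both files.

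Inclusion of the other stop-containing exons did not follow these 2. Of the 109 exons, 22 occur only in decay transcripts, and 19 of these hold an annotated stop codon. Among the 19, 10 exons in 8 genes share no boundary with an exon of a protein-coding transcript, and ψ was at most 0.1 in both files at 7 of the 10. Of the 22, 1 was called lower and 2 higher; over all exons of this class 5.78% were called lower and 6.60% higher.

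DDX17, a paralog of DDX5 that acts in splicing and transcription, had a 231-nt stop exon (chr22:38489228-38489458, minus strand) at ψ of 0.01 in siSNRPB2 and 0.04 in siCtrl. Its inclusion-only reads were 46 in siSNRPB2 and 176 in siCtrl, and its exclusion-only reads 65 and 143. The Bayes factor was 1e+12 in the authors' deposited table, the ψ difference stayed under 0.1 in size, and the adjusted p of the read shares (41.4% and 55.2%) by Fisher's exact test was 0.08. DDX50, a nucleolar helicase of ribosome synthesis, had a 112-nt stop exon (chr10:68906226-68906337) with 17 inclusion-only reads against 118 exclusion-only reads in siSNRPB2 and 49 against 184 in siCtrl, at ψ of 0.05 and 0.09. Its 54-nt form, with the same 3' end and nearly the same reads, was at 0.07 and 0.13. In DDX17 and DDX50 inclusion was thus the lower value in siSNRPB2, where in DDX39A and DDX41 it was the higher.

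The remaining stop exons of this kind were nearly silent. The 98-nt exon of DDX3X had 0 inclusion-only reads in either file beside 1292 exclusion-only reads after the knockdown and 1339 in the control. The 116-nt exon of DDX19A had 1 inclusion-only read beside 787 exclusion-only reads in siSNRPB2, and 0 beside 912 in siCtrl. The 54-nt and 115-nt exons of DDX52 had 0 inclusion-only reads beside the same 104 and 33 exclusion-only reads, and the 75-nt exon of DHX34 had 1 in each file beside 123 and 196.

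**Figure D2:**
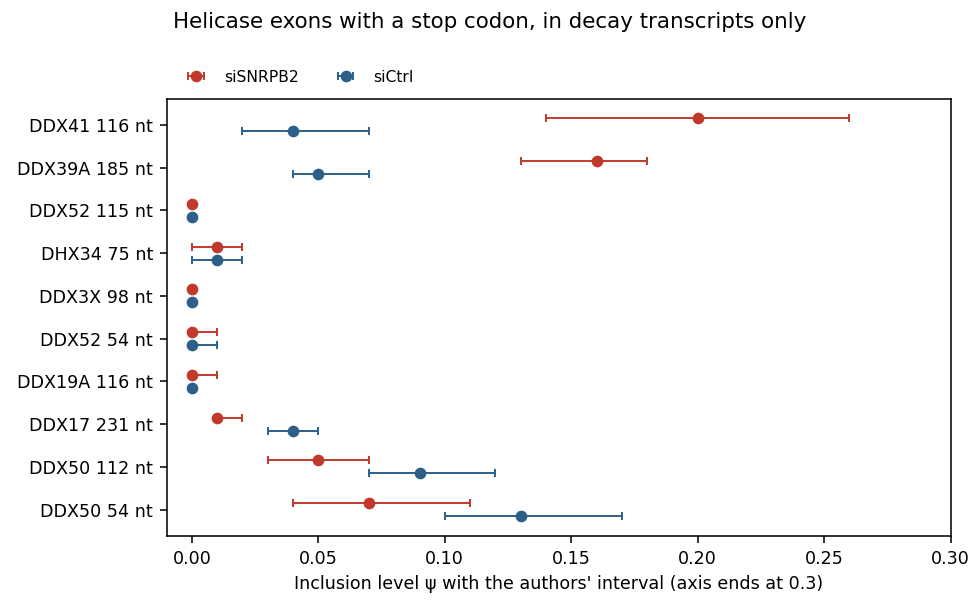
Inclusion level ψ (x axis, ending at 0.3) of the 10 helicase exons that hold a stop codon and share no boundary with a protein-coding exon, in siSNRPB2 (red) and siCtrl (blue), with the authors' intervals as bars. DDX41 and DDX39A lie apart between the groups with the siSNRPB2 value higher, DDX17 and the pair of DDX50 exons have the higher value in siCtrl, and the other 5 lie at 0 or 0.01 in both.

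Coding exons with at least 10 skipping reads, all of them in 1 file, are printed next (without those of DHX33 and DDX46), since here the skipping junction of the event was read in 1 group only. The exon is in capitals and the 12 bases of mRNA on either side are in lower case (GENCODE release 29 transcripts, hg38).
DDX19B 54-nt exon, plus strand: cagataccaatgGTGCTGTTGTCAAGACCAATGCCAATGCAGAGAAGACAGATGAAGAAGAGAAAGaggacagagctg
DDX19B 136-nt exon, plus strand: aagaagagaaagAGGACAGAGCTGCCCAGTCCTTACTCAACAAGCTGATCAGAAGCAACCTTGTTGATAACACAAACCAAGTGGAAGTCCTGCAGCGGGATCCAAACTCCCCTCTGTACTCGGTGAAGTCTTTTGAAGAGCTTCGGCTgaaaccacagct
DDX55 92-nt exon, plus strand: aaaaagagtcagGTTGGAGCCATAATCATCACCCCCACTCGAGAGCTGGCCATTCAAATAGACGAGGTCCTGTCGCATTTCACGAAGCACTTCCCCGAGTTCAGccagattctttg
DDX49 86-nt exon, plus strand: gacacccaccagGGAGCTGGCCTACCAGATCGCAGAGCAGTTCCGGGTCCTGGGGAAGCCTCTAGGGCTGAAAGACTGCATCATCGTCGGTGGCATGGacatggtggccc

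DDX19B and its neighbour DDX19A encode the helicases that release mRNA at the cytoplasmic face of the nuclear pore. The printed exons of DDX19B are neighbours in the mRNA, and ψ was called lower at the first and higher at the other. The 54-nt exon (chr16:70314902-70314955) was at ψ of 0.81 (0.73 to 0.88) in siSNRPB2 and 0.99 (0.96 to 1.00) in siCtrl, a difference of -0.18 with Bayes factor 4.31e+07 in the authors' deposited table. It had 91 inclusion-only reads against 14 exclusion-only reads in siSNRPB2 and 160 against 0 in siCtrl, and Fisher's exact test gave an adjusted p of 2.36e-05.

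The 136-nt exon of DDX19B (chr16:70315969-70316104) was at ψ of 0.98 (0.95 to 1.00) in siSNRPB2 and 0.80 (0.73 to 0.88) in siCtrl, a difference of 0.18 with Bayes factor 3.68e+07 in the authors' deposited table. Here the skipping reads were in the control: 0 exclusion-only reads beside 181 inclusion-only reads in siSNRPB2, and 18 beside 198 in siCtrl. The read shares of 100% (97.98 to 100) and 91.7% (87.1 to 95.0) differed by less than 0.1, with an adjusted p of 2.98e-04 by Fisher's exact test. The 49-nt exon upstream, with skipping reads in both files (72 and 114 beside 140 and 238 inclusion-only reads), was at ψ of 0.62 and 0.64. In its event with another upstream exon (chr16:70294833-70295066) the 49-nt exon was at 0.99 in both files, with 120 and 203 inclusion-only reads and no exclusion-only read. The called events of this gene do not skip single exons, since both leave from the same upstream exon (chr16:70299053-70299354). The 14 reads of the first event also lack the 49-nt exon. The 18 siCtrl reads of the other also lack the 49-nt and 54-nt exons and a 93-nt coding exon downstream (chr16:70317496-70317588). Transcripts without the 54-nt exon were therefore read in both groups, by different junctions and in small numbers. The skipping junction of the 54-nt event also belongs to the isoform that keeps the 136-nt exon in the other event. The opposite calls at these exons are thus not independent of each other.

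In DDX19A, a 219-nt exon of decay transcripts (chr16:70361418-70361636) was at ψ of 0.46 (0.37 to 0.57) in siSNRPB2 and 0.87 (0.74 to 0.99) in siCtrl, a difference of -0.41 with Bayes factor 4.98e+04 in the authors' deposited table. It is a longer form of a 93-nt coding exon with the same 5' end, and the 93-nt form was at ψ of 0.99 and 1.00. The long form had 125 inclusion-only reads in siSNRPB2 and 229 in siCtrl, the short form 310 and 531, and both shared the flanking reads, 238 and 227. Reads on the shared 93 nt or its upstream junction count as inclusion-only for either form, so those of the long form can come from the coding form. In neither file can the levels of both forms be fractions of transcripts, and how much of the decay form was present was not tested. No exclusion-only read was found for either form. The 103-nt coding exon of DDX19A (chr16:70364543-70364645) went the other way, at ψ of 0.92 (0.79 to 0.99) in siSNRPB2 and 0.62 (0.47 to 0.78) in siCtrl. It was not called, with Bayes factor 8.87 in the authors' deposited table, and had no exclusion-only read. In 3 other DDX19A events (84, 61 and 118 nt) ψ was 0.02 or less on the skipping junction they share, which had 31 reads in siSNRPB2 and 136 in siCtrl, and other events of these exons, without skipping reads, had ψ of up to 0.12. DDX19A and DDX19B are near-identical neighbours that a readthrough gene model joins, and 5 events of each also match that model. Reads of these genes can therefore be split between copies, whose part in these values was not tested.

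DDX46 encodes the Prp5 helicase. Its 144-nt exon was at ψ of 0.58 (0.55 to 0.60) in siSNRPB2 and 0.75 (0.71 to 0.79) in siCtrl, a difference of -0.17 with Bayes factor 1e+12 in the authors' deposited table. Behind this were 2838 inclusion-only, 10 exclusion-only and 8049 flanking reads in siSNRPB2, and 2491, 0 and 5476 in siCtrl. Read as a share of informative reads, inclusion was 99.6% (99.4 to 99.8) and 100% (99.9 to 100), with an adjusted p of 0.0159 by Fisher's exact test. The ψ difference thus came with a change in flanking against inclusion-only reads, and skipping reads were a small part of both files. The length of this exon is a multiple of 3. Of the other 4 exons of DDX46 compared, none was called: the 166-nt and 121-nt coding exons were at ψ of 0.99 in both files, and the 49-nt and 117-nt non-coding exons at 0 and 0.01.

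DDX39B (UAP56), which helps to recruit the U2 snRNP and to export mRNA, gave opposite readings by ψ and by reads. Its 175-nt exon (chr6:31541153-31541327, minus strand) was at ψ of 0.68 (0.62 to 0.75) in siSNRPB2 and 0.55 (0.46 to 0.64) in siCtrl, with Bayes factor 1.81 in the authors' deposited table. The informative reads went the other way, with 244 inclusion-only reads against 46 exclusion-only reads in siSNRPB2 and 150 against 9 in siCtrl, shares of 84.1% and 94.3% and an adjusted p of 0.0103 by Fisher's exact test. A further event with the same exon and upstream flank, but a longer form of the downstream flank, was at ψ of 0.95 and 0.48. Its Bayes factor was 1e+12 in the authors' deposited table, from the same 244 and 150 inclusion-only reads, 0 and 5 exclusion-only reads, and 1072 and 1387 flanking reads. No direction is therefore given for this exon.

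No exon was called among the other splicing helicases. DHX15, which takes spliceosomes apart, had a 223-nt non-coding exon with 1 inclusion-only read beside 341 exclusion-only reads in siSNRPB2 and 10 beside 585 in siCtrl, at ψ of 0 in both. DHX35, a helicase of the catalytic spliceosome, had a 93-nt coding exon at ψ of 0.94 (13 exclusion-only beside 366 inclusion-only reads) in siSNRPB2 and 0.98 (8 beside 635) in siCtrl. The exons of DDX5 differed by at most 0.02 in ψ, and the 169-nt exon of DDX20, a helicase of the SMN complex that assembles snRNPs, was at 0.79 in both files. Over the 11 genes of splicing, mRNA export and snRNP assembly, 3 of 37 exons were called lower and 3 higher, each near the background of 7.61% and 7.13% given above, against which the counts of the other roles below are also to be read.

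**Figure D3:**
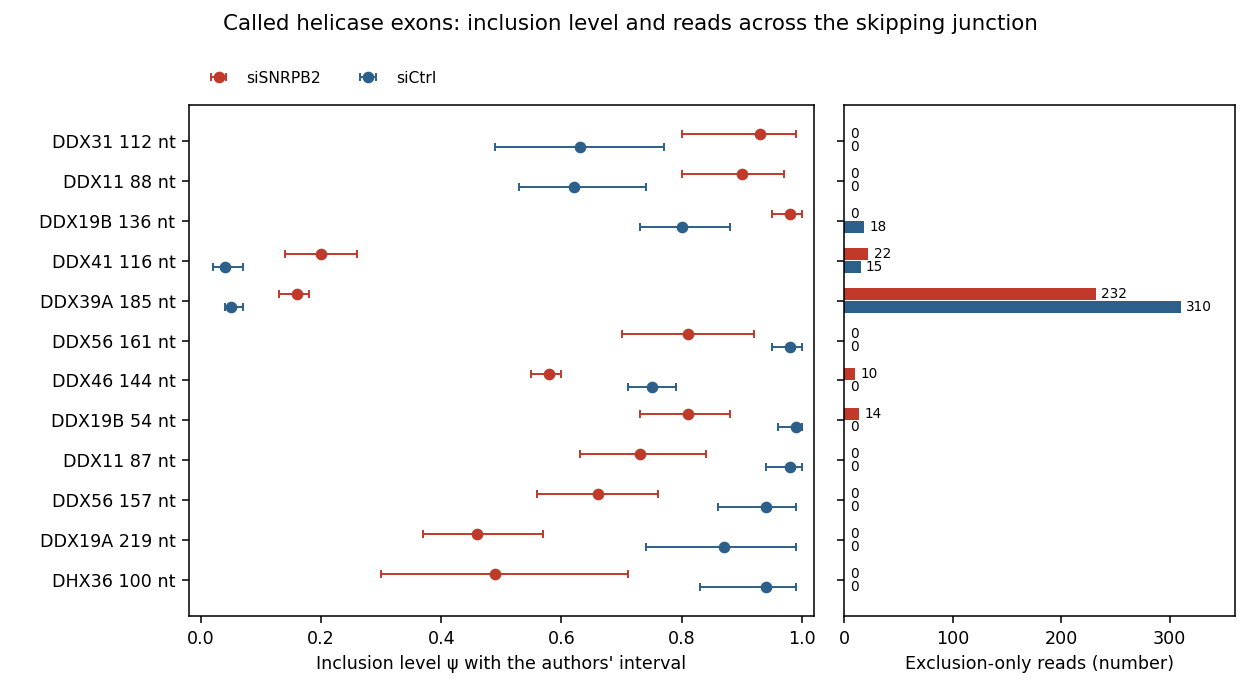
The 12 called helicase exons, ordered by the difference in ψ. Left, ψ in siSNRPB2 (red) and siCtrl (blue) with the authors' intervals; right, the number of exclusion-only reads of the same exons, which is 0 in both files at 7 of them and above 0 in 1 file only at DDX46 and the pair of DDX19B exons.

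Among the helicases of genome stability, DDX11 and DHX9, 1 of 9 exons was called lower and 1 higher, both in DDX11, which encodes a DNA helicase of sister chromatid cohesion. The 87-nt exon of DDX11 (chr12:31084583-31084669) was at ψ of 0.73 (0.63 to 0.84) in siSNRPB2 and 0.98 (0.94 to 1.00) in siCtrl, a difference of -0.25 with Bayes factor 5.03e+05 in the authors' deposited table. The 88-nt exon (chr12:31089403-31089490) was at 0.90 (0.80 to 0.97) and 0.62 (0.53 to 0.74), a difference of 0.28 with a Bayes factor of 2049. Neither had an exclusion-only read, and their inclusion-only reads were 174 and 368 for the first and 176 and 159 for the second. The 188-nt decay exon of DDX11 (chr12:31086025-31086212) did have skipping reads: 72 inclusion-only reads against 164 exclusion-only reads in siSNRPB2 and 42 against 313 in siCtrl, shares of 30.5% (24.7 to 36.8) and 11.8% (8.66 to 15.7), with an adjusted p of 9.23e-07 by Fisher's exact test. Its ψ was 0.07 and 0.03, too small a difference for a call. DDX11 has a near-identical pseudogene copy, so that these values are uncertain.

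DHX9, which unwinds RNA and RNA-DNA hybrids, had an exon with more skipping reads than any other compared helicase exon except the 179-nt exon of DDX3X. This exon is non-coding and is shown whole (hg38 chr1:182855577-182855713).
DHX9 137-nt exon, plus strand: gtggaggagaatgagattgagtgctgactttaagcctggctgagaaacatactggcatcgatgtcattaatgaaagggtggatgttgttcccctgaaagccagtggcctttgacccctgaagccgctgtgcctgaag
Inclusion of the DHX9 exon was low in both files, with 125 inclusion-only reads against 2362 exclusion-only reads in siSNRPB2 and 222 against 2354 in siCtrl. The read shares were 5.03% (4.20 to 5.96) and 8.62% (7.56 to 9.77) with an adjusted p of 7.54e-06 by Fisher's exact test, and ψ was 0.02 and 0.04. The intervals of the shares did not overlap, and the difference was under 0.1 on either scale.

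Ribosome biogenesis helicases had 28 compared exons in 11 of 16 genes, of which 2 were called lower and 1 higher. Both lower calls lie in DDX56, a nucleolar helicase of the large ribosomal subunit, and share the 3' end and all flanking reads (620 in siSNRPB2 and 534 in siCtrl). The 161-nt coding exon of DDX56 (chr7:44572890-44573050, minus strand) was at ψ of 0.81 (0.70 to 0.92) and 0.98 (0.95 to 1.00) with 284 and 445 inclusion-only reads and Bayes factor 29.9 in the authors' deposited table. The nested 157-nt exon was at 0.66 and 0.94 with 224 and 299. Reads on the bases that these DDX56 exons share count for either, so their levels cannot both be fractions of transcripts. The 112-nt exon of DDX31 (chr9:132618330-132618441, minus strand), another nucleolar helicase, was at 0.93 (0.80 to 0.99) in siSNRPB2 and 0.63 (0.49 to 0.77) in siCtrl, with Bayes factor 14.5 in the authors' deposited table and 84 and 79 inclusion-only reads. None of these 3 exons had an exclusion-only read in either file.

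Skipping reads in this group were found at exons that missed the call. The printed 92-nt exon of DDX55 (chr12:123607432-123607523), a helicase of large-subunit assembly, had 461 inclusion-only reads against 14 exclusion-only reads in siSNRPB2 and 586 against 0 in siCtrl, at ψ of 0.93 and 1.00, Bayes factor 1.14e+04 in the authors' deposited table and an adjusted p of 1.62e-04 by Fisher's exact test. The printed 86-nt exon of DDX49 (chr19:18921663-18921748) had 0 exclusion-only reads beside 202 inclusion-only reads in siSNRPB2 and 12 beside 195 in siCtrl, at ψ of 0.99 and 0.89, with Bayes factor 5.23 in the authors' deposited table and an adjusted p of 3.67e-03 by the exact test. In DHX33, a helicase of ribosomal RNA synthesis, exclusion-only reads of the 112-nt exon numbered 10 after the knockdown and 0 in siCtrl, beside 382 and 316 inclusion-only reads. These are 3 exons with skipping in 1 file, 2 in siSNRPB2 and 1 in siCtrl, each at under 10% of informative reads. The 93-nt exon of DDX27 had skipping reads in both files and shares of 43.7% and 40.5%, and the 76-nt and 65-nt forms of a DDX49 exon were at ψ of 0 or 0.01 with 179 and 170 exclusion-only reads.

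Helicases of translation, decay and storage of mRNA had 21 compared exons in 4 of 6 genes, and 1 was called lower. The 100-nt exon of DHX36 (chr3:154280763-154280862, minus strand), a helicase that resolves G-quadruplexes, was at ψ of 0.49 (0.30 to 0.71) in siSNRPB2 and 0.94 (0.83 to 0.99) in siCtrl with Bayes factor 205 in the authors' deposited table. It had 24 and 71 inclusion-only reads, 61 and 55 flanking reads and no exclusion-only read. DDX3X, a helicase that unwinds structured mRNA leaders, held 15 of the 21 exons and none was called. In its 1222-nt decay exon (chrX:41337691-41338912) inclusion-only reads were 141 in siSNRPB2 and 269 in siCtrl and exclusion-only reads 142 and 122, shares of 49.8% (43.8 to 55.8) and 68.8% (63.9 to 73.4) with an adjusted p of 1.32e-05 by Fisher's exact test, while ψ was 0.02 and 0.05. The 1393-nt form of DDX3X, with the same 5' end, was at 0.14 and 0.16, and the alternative 48-nt and 45-nt coding exons inside it were at 0.99 and 0.98 in siSNRPB2 and siCtrl. The 179-nt exon was at 0 in both with 2470 and 2940 exclusion-only reads.

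In DHX30, a helicase of mitochondrial ribosomes and the only mitochondrial member compared, the 166-nt exon (chr3:47815963-47816128) had 38 inclusion-only reads against 69 exclusion-only reads in siSNRPB2 and 31 against 133 in siCtrl. The shares were 35.5% (26.5 to 45.4) and 18.9% (13.2 to 25.7), with overlapping exact intervals and an adjusted p of 0.0181 by Fisher's exact test, and ψ was 0.09 and 0.04. Its 29-nt decay exon was at ψ of 0 in both with 27 and 46 exclusion-only reads. Innate sensors of viral RNA had 5 compared exons and none was called. Among them, the 148-nt exon of DDX58 (RIG-I) was at 0.98 and 0.99, and the 116-nt exon of DDX60L at 0.11 and 0.16 with 12 and 15 inclusion-only and 42 and 14 exclusion-only reads. The 7 exons of the less characterised DDX59, DHX40 and DHX57 held no call either.

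The lengths of the called exons ran from 54 to 219 nt, against a median of 119 over the compared helicase exons (29 to 1676). Of the 12, 8 were in protein-coding transcripts, and all 8 were coding over their whole length; 3 of the 8 have a length that is a multiple of 3. Of the 75 helicase exons in protein-coding transcripts, 5 were called lower and 3 higher, and over all exons of that class 8.05% were lower and 7.05% higher.

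Reads per gene were the reads of the deepest event that fit 1 or both of its isoforms, scaled to the file's sum over 1 event of every gene (RPM). They follow the amount of RNA covering the exons of that event, not the whole gene, and fewer cells that express a gene cannot be told apart from less of its RNA per cell. Of 37 genes with events, 35 had at least 100 reads on average; DHX58 and DDX60 did not. The log2 ratio was above 0 at 13 and below 0 at 22, with a median of -0.05, against 0.00 over all 8095 genes. A difference of more than 1.5-fold was found at 1 helicase gene in the higher direction and 4 in the lower, where 7.19% and 7.34% of all genes passed the same folds. At 13 of the 35 the counting interval held 0, and at 29 it did so when widened by the noise factor. That factor was measured on the split of reads within exons. It does not measure how gene levels vary between libraries, so the widened intervals do not cover that variation.

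DDX46 had the highest log2 ratio of the 35 helicase genes with at least 100 reads, and DHX29 (below) lay farther from 0 in the lower direction. It had 10897 reads in siSNRPB2 and 7967 in siCtrl, or 667 and 432 RPM, a log2 ratio of 0.63 (counting interval 0.59 to 0.67, and 0.50 to 0.76 with the noise factor). All 5 of its events had the higher value in siSNRPB2, with log2 ratios from 0.59 to 1.18. Among the 3420 genes with at least 1000 reads, which had log2 ratios with an SD of 0.26, DDX46 ranked 50 from the top, and it ranked 487 among all 8095. The libraries behind each value are pooled, so that how far DDX46 varies between replicates was not analysed here.

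The genes past 1.5-fold in the other direction rested on fewer reads. DHX29, a helicase of translation initiation, had 403 reads in siSNRPB2 and 769 in siCtrl, a log2 ratio of -0.75 (-1.30 to -0.21 with the noise factor), from 1 event. DDX58 (RIG-I) had 430 and 757 reads and a log2 ratio of -0.64 (-1.18 to -0.10), also from 1 event. DDX60L, an interferon-induced gene, had 115 and 212 reads and -0.70, but its 4 events ran from -0.70 to 0.41 and summed to -0.05. In DHX35, with 384 and 664 reads and -0.61, the 3 events ran from -0.61 to 1.08 and summed to -0.22. The low ratio of DDX60L and DHX35 was thus that of their deepest event.

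Other helicases with the higher value in siSNRPB2 were DHX34 at a log2 ratio of 0.43 (533 and 446 reads), a factor of nonsense-mediated decay, with its other event at -0.21, DDX20 at 0.36 (721 and 636), DHX33 at 0.29 (722 and 668) and DDX47 at 0.26 (1529 and 1439) with its other event at 0.01. Both events of DDX47 also match exon boundaries of the protein-coding gene APOLD1, whose part in these reads was not tested. DDX19B was at -0.40 (434 and 646 reads) with all 5 of its events below 0. DDX5, a splicing and transcription helicase with the most reads among the DDX and DHX genes (16190 and 16161), was at 0.18 and above 0 at all 6 of its events. Close to 0 were DHX15 at -0.00 (6344 and 7182 reads), DDX3X at -0.01, DDX41 at -0.02, DDX17 at -0.03 and DDX39B at -0.05. By role, the 11 splicing and export helicases had a median log2 ratio of -0.02 and the 11 ribosome biogenesis helicases of 0.06.

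**Figure D4:**
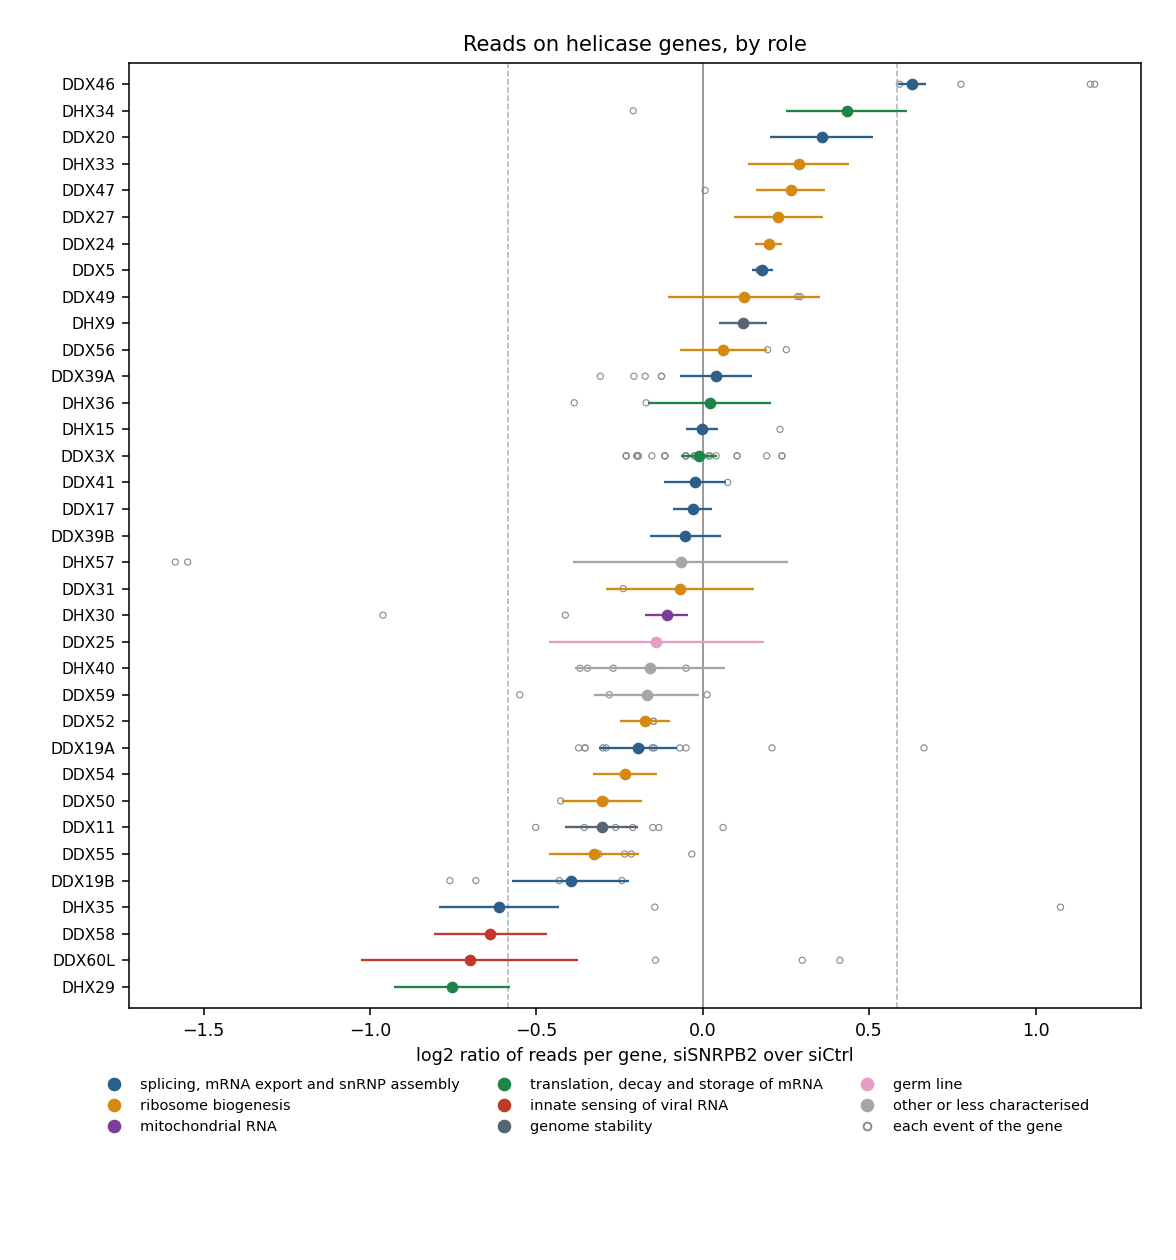
Log2 ratio of reads per gene, siSNRPB2 over siCtrl (x axis), for the 35 helicase genes with at least 100 reads, coloured by role. Filled points are the deepest event with its 95% counting interval, open circles are every event of the gene, and dashed lines mark 1.5-fold. Among the filled points, DDX46 lies alone beyond the upper line, and DHX29, DDX60L, DDX58 and DHX35 beyond the lower. Open circles of further events also lie beyond the lines, such as DHX35 and DDX19A above and DHX57 and DHX30 below.

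Reads incompatible with both isoforms are called reads that fit neither isoform. They can lie in the introns of an event or in other exons, or use other splice sites, and where they lie was not examined. Their ratio to compatible reads was more than 1.5-fold higher in siSNRPB2 at 9 of the 35 helicase genes and lower at 2, where the background was 20% higher and 7.89% lower. The median log2 ratio was 0.07 over the helicases and 0.14 over all genes. The highest values were those of the germ line helicase DDX25 at 2.12 (20 such reads in siSNRPB2 and 5 in siCtrl), DHX29 at 1.59 (455 and 288) and DDX19B at 0.95 (255 and 196). The lowest were DHX33 at -1.11 (166 and 332), DHX36 at -0.83 (69 and 138) and DHX34 at -0.52 (672 and 808). With reads summed over all events of a gene these became -0.48 for DHX33, -0.31 for DHX36, -0.13 for DHX34 and 0.53 for DDX19B, all within 1.5-fold, and with a pseudocount of 10 reads DDX25 was at 1.30. On the deepest event of DHX29 and DDX19B the fewer compatible reads in siSNRPB2 thus came with more reads that fit neither isoform. At the other DDX19B events, such reads were 578 against 635, 540 against 641, 947 against 1091 and 424 against 400 (siSNRPB2 against siCtrl). The log2 ratio of DDX46 was 0.19.

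A pair of gene lists sets these values in context. Helicases without a DDX or DHX symbol, which are the DEAD box proteins EIF4A1, EIF4A2 and EIF4A3 and members of related families, had 35 compared exons in 15 genes, with 1 called lower and 2 higher. These were a 49-nt exon of the translation initiation helicase EIF4A1 at ψ of 0.36 in siSNRPB2 and 0.81 in siCtrl, its 18-nt exon at 0.49 and 0.17, and a 113-nt exon of the exosome helicase MTREX at 0.95 and 0.64. None of these 3 had an exclusion-only read in either file. Cofactors and partners of the helicases had 104 compared exons in 32 genes, with 7 called lower and 12 higher. The background of 7.61% and 7.13% applies to both lists.

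NUP214, the nuclear pore protein that binds DDX19, held 4 of the 12 higher calls of the cofactors, with ψ of 0.95 to 0.99 in siSNRPB2 and 0.52 to 0.64 in siCtrl and no exclusion-only read. Its called 98-nt and 95-nt exons are nested forms that share an end, each with 115 inclusion-only reads in siCtrl, so these calls are not independent. RBM5, a G-patch protein that activates DHX15, had a 61-nt exon at 0.43 in siSNRPB2 and 0.92 in siCtrl with 49 and 36 inclusion-only and 25 and 0 exclusion-only reads, the called exon of these lists with the widest gap in ψ. Its 74-nt exon was at 0.98 and 0.80, with 0 and 8 exclusion-only reads. SUGP1, a G-patch protein of the branch point that also works with DHX15, had 3 higher calls (179, 189 and 320 nt), at 0.48 against 0.16, 0.93 against 0.51 and 0.64 against 0.34. None of these 3 SUGP1 exons had an exclusion-only read in either file, and the 189-nt exon is nested in the 320-nt one. The difference between these lists and the helicases was not tested.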

How the data were processed

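The data are total RNA libraries of MDA-LM2 cells, 2 for each of 2 groups. The submitters' processing notes name STAR 2.7 and the build hg38. Inclusion levels are MISO estimates per the file headers; the authors deposited each as a fraction with an interval and with read counts per class. The authors' deposited comparison gives the ψ difference, a signed score, and the Bayes factor, a ratio capped at 1e+12. Not given in the sources used here are the MISO version, the interval level and how libraries were merged.

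Events were matched to GENCODE release 29 by exon boundaries, with priority to helicase genes. For each skipped exon the event with the most informative reads was kept. Reads per gene used a pseudocount of 1. Intervals of shares are exact (Clopper-Pearson, 95%) and, like the counting intervals, cover counting error only. The noise factor is the median chi-square over its expectation over 4390 exons at 0.95 or more in each file that had no skipping reads and at least 5 expected reads. Named were genes with a called exon, exons with at least 10 exclusion-only reads in a file, the 5 highest and 5 lowest genes by reads, the 3 highest and lowest by reads that fit neither isoform, and up to 3 called genes per comparison list. Others (such as DDX5, DDX3X or DDX59) were added for comparison. Members, lists and thresholds were chosen with earlier results of these data known. No event in both files was found for DDX1, DDX3Y, DDX4, DDX6, DDX10, DDX18, DDX21, DDX28, DDX43, DDX51, DDX53, DHX32 and DHX37, and no exon of DDX25 and DDX60 had enough reads. The sequence of 1 DDX46 exon is not reported here. Scripts were tested on simulated data. Software: scipy 1.17.1, pandas 2.3.3 and numpy 2.4.6 under Python 3.11.15, with figures by matplotlib 3.10.9.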

Additional observations from a re-analysis of the deposited data

How the results depend on the processing

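The 12 called helicase exons (7 lower, 5 higher) numbered 10 to 14 with other read minimums, Bayes factors or a ψ difference of 0.05, with every event counted, with exact exon ends, with intervals that do not overlap, and without DDX11. They numbered 6 with a ψ difference of at least 0.2, 5 with at least 1 exclusion-only read, 6 by Fisher's exact test on reads (2 of the 12 among them), and 0 by the same test with reads divided by the noise factor. For this 0 no share over all exons is given. Without DDX11, DDX19A and DDX19B there were 7 of 87 (this alternative and the one without DDX11 were chosen after seeing the data). Genes past 1.5-fold by reads went from 5 to 1 of 17 with at least 1000 reads, which tests fewer genes, and were 4 to 6 otherwise. Genes past 1.5-fold by reads that fit neither isoform went from 11 to 6 (0 lower, 6 higher) with all events summed; the cause was not tested. The share of inclusion-only reads cannot differ at the 7 called exons without exclusion-only reads. The exon of DDX39B, lower by the read test, was higher by ψ (0.13, and 0.30 as the median over its events).

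No paired analysis was possible because the files hold 1 value per event and group, although the labels number the libraries 1 and 2 in each group. Leaving out a library could not be run for the same reason. Depth limits the exons with under about 100 informative reads, such as those of DDX41 and DHX36.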

Other observations

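Large differences in ψ were also deposited for helicase exons with too few reads to be compared, and these were chosen after their values were seen. A 56-nt exon of DDX3X (chrX:41347860-41347915) was at ψ of 0.04 and 0.05 in its 2 events in siSNRPB2 and at 0.32 and 0.36 in siCtrl, from 6 and 61 inclusion-only reads and no exclusion-only read. A 125-nt exon of DDX60L (chr4:168475996-168476120) was at 0.05 in siSNRPB2 with 2 inclusion-only and 6 exclusion-only reads, and at 0.35 in siCtrl with 36 and 0. An event with the 146-nt exon of DHX40 (chr17:59570518-59570663) was at 0.05 and 0.29 from 7 and 44 inclusion-only reads, while the event of the same exon with more reads was at 0.25 and 0.32.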
